A study of Rattus norvegicus with 90 samples.

Results

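The genes described here copy the DNA in S phase. They encode the sliding clamp and its loader, the replicative polymerases with primase, the helicase assembly factors, the proteins that bind single strands and mature Okazaki fragments, enzymes of deoxynucleotide supply, the cyclin E and E2F1 regulators of S phase entry, and factors of chromatin at the fork. They were taken as a list of 39 symbols and looked up in the platform annotation of the array probes. A named probe was found for 33 of the 39 genes, out of 13337 named genes in all, and where a gene had several probes the brightest one was used, which applied to Pola1 and Cdca7. Rrm1, Tk1, Dut, Cdc45, Chaf1a and Slbp had no named probe and were not analysed here. All 33 measured genes stayed in the analysis, with no filter on low values.

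The cells were AR42J, an established rat line of pancreatic acinar tumour origin that responds to gastrin, a stomach hormone known to act on acid secretion and on mucosal growth. Of 90 Illumina arrays, 10 came from cells given gastrin together with cycloheximide, 34 from cells given gastrin, 9 from cells given cycloheximide and 35 from untreated control cells. The 2 remaining arrays, at 12 h, had conflicting labels and were left out. Cycloheximide stops ribosomes and so blocks the making of new protein. Times ran from 0 to 14 h over 6 batches: batches 2 and 3 covered 0.25 to 14 h with gastrin, batches 4 to 6 held the cycloheximide arms at 1 to 6 h, and batch 1 had 14 h alone. No dose is given in the labels. Whether the batches came from independent cultures is not stated either, so the p-values here reflect sample-to-sample spread that may be technical, and pairs of different times can share 1 of the 6 batches. In this cell line 12 of 13 measured acinar markers had a mean level above 8 on the deposited log2 scale, as had 1 of 5 ductal markers, 0 of 6 fibroblast or stromal markers and 0 of 3 immune or endothelial markers. Mean levels ranged from 6.11 to 14.52 over the acinar list, from 6.08 to 9.49 over the ductal list, from 5.95 to 6.13 over the fibroblast or stromal list and from 5.98 to 6.39 over the immune or endothelial list.

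DNA replication starts when the Cdc45 and GINS proteins join the loaded MCM rings to form the active helicase. Polymerase alpha with primase lays down primers, the RFC loader places the PCNA ring on them, and polymerases delta and epsilon extend the strands while RPA covers exposed single strands. FEN1 and LIG1 trim and seal Okazaki fragments, and ribonucleotide reductase and thymidylate synthase supply deoxynucleotides. E2F factors switch on many of these genes late in G1, and cyclin E with its kinase promotes that step, so the group is widely used as a readout of entry into S phase. In these bulk samples a smaller share of cells in S phase and less of the RNA per cell cannot be told apart.

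Some arrays stood apart along an axis of expression that is not a label. The array score is the mean of the 200 probes most raised minus that of the 200 most lowered in the 2 h controls of batches 4 and 5 relative to their other controls, with the 33 genes left out and the median control at 0, and 18 of 90 arrays lay above 0.5 on it. Among them were the gastrin arrays of batches 2 and 3 at 1, 1.5 and 2 h, with scores of 0.72 to 1.17, where their controls had 0.01 to 0.28. The 2 h controls of batches 4 and 5, with 1.91 and 1.25, were also above it, which follows from the score being defined on them. At 4 to 8 h no gastrin or control array was above 0.5. At 10 and 14 h 2 of 5 gastrin arrays were, against 0 of 5 controls.

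In gastrin-treated cells the median of these genes lay below the untreated control of the same batch and time at 2 to 6 h and above it at 10 to 14 h. The median fitted difference was negative earlier as well, at -0.13 at 0.25 h, -0.12 at 0.5 h, -0.04 at 1 h and -0.15 at 1.5 h. At 0.5 h the 2 pairs differed in sign, with medians of 0.07 and -0.26. The median describes the group: 21 of the 33 genes were called lower over 4 to 8 h, 11 were called higher at 10 and 14 h, and 9 were both. The median of the 33 fitted differences was -0.16 at 2 h, -0.30 at 4 h and -0.29 at 6 h, lay at -0.02 at 8 h, and was 0.21 at 10 h and 0.18 at 14 h, all on the deposited log2 scale, against a median over all probes of -0.00478 to -0.00152 at these times. The highest median of a pair of samples at 4 or 6 h was -0.209, and no pair at 10, 12 or 14 h had a median below 0. A gene was called when limma, fitted over all 22523 probes with Benjamini-Hochberg adjustment, gave an adjusted p under 0.05. At 4 h 24 of the 33 genes were called lower and 0 higher, where 3.47% of all probes were called lower, and 29 of the 33 were lower in all 5 pairs. At 6 h 19 were called lower, against 2.13% of all probes, and at 10 h 7 were called higher, against 1.35% of all probes. At 14 h 3 were called higher, against 0.706% of all probes.

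**Figure D1:**
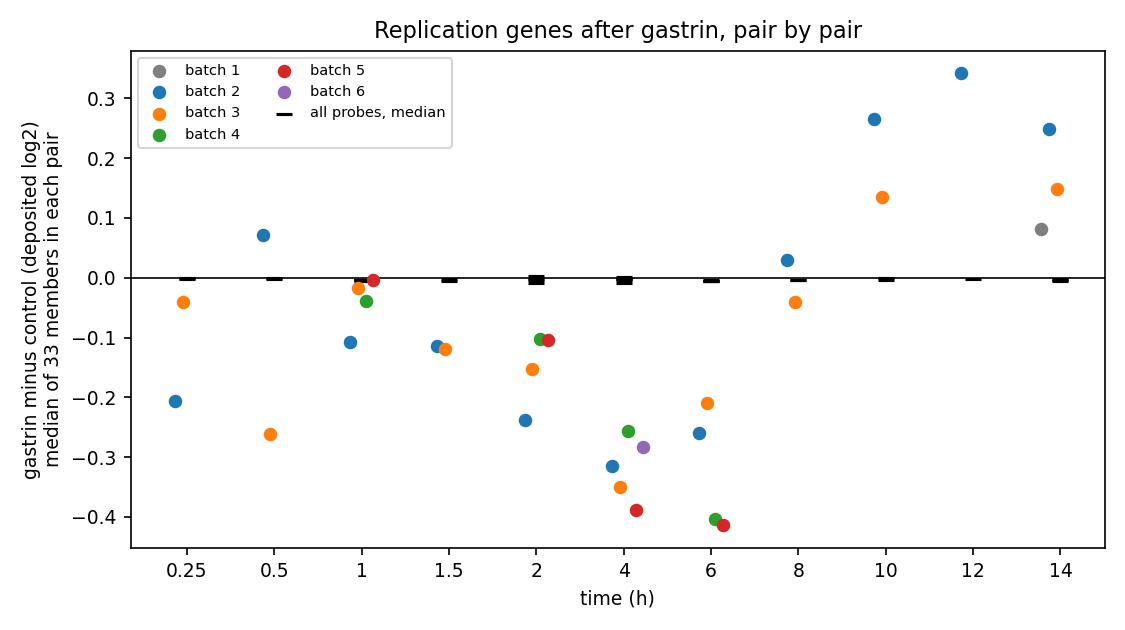
Median gastrin minus control difference of the 33 genes (vertical axis, deposited log2) in each pair of samples, by time in hours and coloured by batch, with black dashes for the median of all probes in the same pair. Every point at 4 and 6 h lies below -0.2 and every point at 10, 12 and 14 h lies above 0.

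Between 0.25 and 1 h 0 of the 33 genes were called at any single time, where limma called 0%, 0.0355% and 1.63% of all probes at 0.25, 0.5 and 1 h, and 3 genes at 0.25 h, 4 at 0.5 h and 6 at 1 h had an unadjusted p under 0.05. At 1.5 h 2 genes were called lower, against 3.26% of all probes, and at 2 h 8 were, against 2.06% of all probes. At 8 h, with 2 pairs, limma called 0 genes in either direction, 0 genes had an unadjusted p under 0.05, and 0.946% of all probes were called. At 12 h a single pair with agreeing labels gave a median of 0.34, with 29 of the 33 genes higher in the gastrin sample and Gins1 the farthest at 1.06, and no test rests on it. The gastrin array of that pair had a high array score, 0.88, and its control had 0.13. Times differ in their number of pairs, from 1 to 5, so the counts of calls at single times are not on an equal footing. Without batch 2 the counts at 2, 6 and 10 h were 1, 12 and 0, without batch 3 they were the same, and without batch 4 the count at 6 h was 11; the count at 10 h was also 0 without arrays of high score. Over 4 and 6 h together, 26 of the 33 genes were called lower at 1 time or the other and 17 at both.

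**Figure D2:**
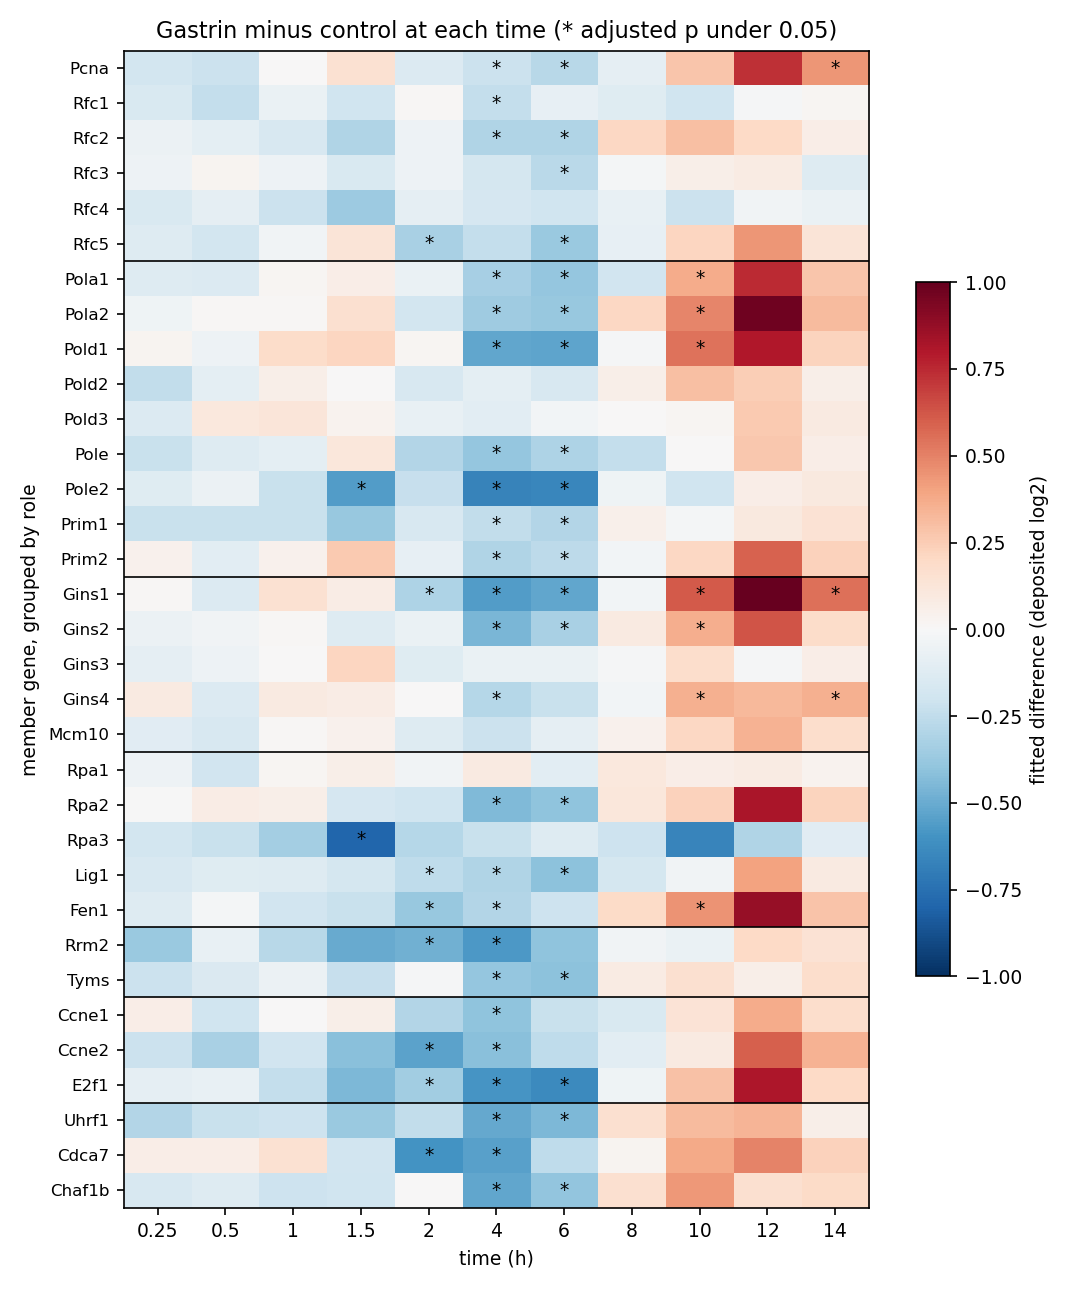
Fitted gastrin minus control difference (colour, deposited log2) of the 33 genes in rows grouped by role, at each time in hours in columns. Stars mark an adjusted p under 0.05 (12 h has 1 pair and no stars), and blue dominates at 4 and 6 h and red from 10 h on.

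Averaged over 0.5 to 2 h, 10 genes were called lower with gastrin and 0 higher, where 4.53% of all probes were called lower, and the median of the 33 genes was -0.10. The called genes were Rpa3, Ccne2, Rrm2, E2f1, Pole2, Uhrf1, Prim1, Fen1, Rfc4 and Lig1. Rpa3 encodes the smallest subunit of the single-strand binding complex RPA. At 1.5 h its level was 10.22 and 10.81 in the gastrin samples of batches 2 and 3, against 11.30 and 11.32 in their controls. At 1 h it was 9.99 and 10.21 in the gastrin samples of those batches, against 11.13 and 11.14 in their controls, and 11.37 and 11.62 in the gastrin samples of batches 4 and 5, against 10.89 and 11.41 in their controls. At 2 h it was 10.43 and 10.77 in the gastrin samples of batches 2 and 3, against 11.003 and 11.37 in their controls, and 11.47 and 11.73 in the gastrin samples of batches 4 and 5, against 11.45 and 11.73 in their controls. At these times Rpa3 was therefore lower with gastrin in every pair of batches 2 and 3, where the groups did not overlap within a time. It was not lower at 1 or 2 h in either pair of batches 4 and 5. Its average over the window was -0.41 ± 0.10 (SE, 12 pairs, limma adjusted p = 0.00989).

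The other large early differences were in Ccne2, the gene of cyclin E2, at -0.37 ± 0.06 (SE, 12 pairs, limma adjusted p = 1.13e-04), in Rrm2, the small subunit of ribonucleotide reductase, at -0.33 ± 0.08 (SE, 12 pairs, limma adjusted p = 0.00973), and in E2f1 at -0.28 ± 0.06 (SE, 12 pairs, limma adjusted p = 0.00327). Fen1 was the gene of the 10 that was lower in all 12 pairs, at -0.20 ± 0.05 (SE, 12 pairs, limma adjusted p = 0.0136). The 4 genes called lower in this window but not in the average over 4 to 8 h were Prim1, Rfc4, Rpa3 and Fen1. At single times, however, Prim1 was called lower at 4 and 6 h and Fen1 at 4 h. Rfc4 and Rpa3 were called at neither time. In the early window Prim1, the catalytic primase subunit, had -0.24 ± 0.05 (SE, 12 pairs, limma adjusted p = 0.00256). Rfc4, a clamp loader subunit, had -0.19 ± 0.06 there (SE, 12 pairs, limma adjusted p = 0.0469). Arrays with a high score are present in this window, as given above. With that score entered as a covariate 2 genes were called, Ccne2 among them at -0.25, without the arrays of high score 0 were called with Rpa3 at 0.06 and Rfc4 at 0.0026, and without batch 2 or without batch 3 limma also called 0.

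Over 4 to 8 h the decrease was broad. Limma called 21 of the 33 genes lower and 0 higher, where 5.33% of all probes were called lower, 32 of the 33 differences were negative, and the median was -0.23 against -0.00367 over all probes. The greatest decrease was in Pole2, which encodes the second subunit of the leading strand polymerase epsilon. At 4 h its level was 8.31, 8.03, 9.24, 9.27 and 9.55 in the gastrin samples of batches 2 to 6, against 8.95, 8.80, 9.73, 10.06 and 10.22 in the controls in the same order. At 6 h it was 8.23, 8.27, 8.59 and 9.09 in the gastrin samples of batches 2 to 5, against 8.87, 8.70, 9.26 and 9.97 in the controls. Each gastrin sample at 4 and 6 h was lower than the control of its own batch, while the ranges of the groups overlapped across batches. At 8 h Pole2 was 8.81 and 8.68 in the gastrin samples, against 8.78 and 8.80 in the controls of batches 2 and 3. The window average was -0.46 ± 0.07 (SE, 11 pairs, limma adjusted p = 1.16e-05), and the difference was -0.67 ± 0.09 (SE, 5 pairs, limma adjusted p = 7.80e-06) at 4 h.

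Other subunits of the polymerases moved with Pole2 in part. Of the 9 polymerase and primase genes 5 were called lower over 4 to 8 h, with a median of -0.20 over the 9, and 7 were called lower at 4 h. Pold1, the catalytic subunit of polymerase delta, was at -0.35 ± 0.07 (SE, 11 pairs, limma adjusted p = 3.10e-04). Pole, the catalytic subunit of polymerase epsilon, was at -0.31, Pola1, that of polymerase alpha, was at -0.30 and lower in all 11 pairs, and Prim2, the large primase subunit, was at -0.20. The accessory delta subunits Pold2 and Pold3 were not called over 4 to 8 h, at -0.07 and -0.04. In the fit of batches 4 to 6 at 4 and 6 h, Pold2 was called lower, at -0.32.

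Of the 5 measured helicase assembly genes 3 were called lower. These were the GINS members Gins1 at -0.37 ± 0.06 (SE, 11 pairs, limma adjusted p = 3.85e-05), Gins2 at -0.23 and Gins4 at -0.18, while the fourth GINS gene, Gins3, was at -0.05 and Mcm10, which helps to activate the helicase, was at -0.09. Of the 6 clamp and clamp loader genes 3 were called lower, Pcna at -0.19 in all 11 pairs, Rfc5 at -0.23 and Rfc3 at -0.15. In the group of single-strand binding and Okazaki fragment genes, 2 of 5 were called lower. Lig1, the ligase of Okazaki fragments, was at -0.30 and lower in all 11 pairs, and Rpa2 was at -0.24.

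All 3 regulators of S phase entry, both measured nucleotide supply genes and all 3 measured chromatin genes were called lower over 4 to 8 h. E2f1, a transcription factor that drives genes of this group, was at -0.42 ± 0.07 (SE, 11 pairs, limma adjusted p = 2.69e-05), and was lower in all 11 pairs. At 4 h its level was 7.49, 7.42, 8.51, 7.93 and 8.26 in the gastrin samples of batches 2 to 6, against 8.45, 8.19, 8.59, 8.54 and 8.76 in the controls. The smallest of these 5 gaps was in batch 4 and the largest in batch 2, and the groups overlapped across batches. Ccne1 and Ccne2, the cyclin E genes, were at -0.26 and -0.26. Tyms, thymidylate synthase, was at -0.24 and Rrm2 at -0.34 ± 0.09 (SE, 11 pairs, limma adjusted p = 0.011). Its 4 h level was 10.19, 9.82, 11.61, 11.89 and 11.59 in the gastrin samples of batches 2 to 6, against 10.90, 10.89, 12.08, 12.26 and 11.87 in the controls. The gap was widest in batches 2 and 3.

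Among the chromatin genes, Uhrf1, which guides maintenance DNA methylation, had 4 h levels of 7.22, 7.08, 7.36, 7.16 and 6.89 in the gastrin samples of batches 2 to 6, against 7.78, 7.37, 7.82, 7.72 and 7.58 in the controls. These groups did not overlap, with the highest gastrin sample just under the lowest control. Over 4 to 8 h Uhrf1 was at -0.27, Cdca7, which takes part in chromatin remodelling with the HELLS protein, at -0.26, and Chaf1b, a subunit of the histone chaperone CAF-1, at -0.25.

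Without batch 2 the count of genes called lower over 4 to 8 h was 13, and without batch 3 it was 9; with the score added to the fit it was 21 and without arrays of high score 25. At 4 h alone the count was 24 with the covariate and 25 without arrays of high score. No gastrin or control array at 4 to 8 h had a high score, so leaving such arrays out removed no pair of this window. The counts of 25 differ through the spread, which is estimated over all times together, and do not check this window against the score.

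Promoters of genes that fell together are shown because E2F binding sites are a known shared feature of replication genes. RefSeq windows of assembly GRCr8, 250 bases before to 50 bases after a gene's start, were matched by symbol and found for 28 of the 33 measured genes. The letters searched were TTTGGCGC, TTTCCCGC, TTTGCCGC and TTTCGCGC on both strands, which are forms of the E2F site, and CCAAT on both strands. A form of the E2F letters was in 12 of the 28 genes (42.9%), in 716 of 33469 windows of all genes (2.14%) and in 357 of the 10993 array genes with a window (3.25%). CCAAT was in 15 of the 28 (53.6%), in 37.5% of all windows and in 38.3% of the array genes with one. The 12 genes are Cdca7, Gins1, Gins3, Lig1, Pola1, Pold3, Pole, Pole2, Rfc3, Rpa2, Tyms and Uhrf1. Of the genes called lower over 4 to 8 h, 10 of the 17 with a window held the E2F letters. Of those not called 2 of 11 did. The split was narrower or reversed in other comparisons. At 4 h it was 9 of 20 called lower and 3 of 8 not called. In the first gastrin window it was 3 of 6 called lower and 9 of 22 not called. With cycloheximide alone at 4 to 6 h it was 6 of 12 called lower and 5 of 14 not called. At 10 and 14 h it was 3 of 10 called higher and 9 of 18 not called. These counts are a description with no test. A match is not a shown binding site. The 4 windows printed here belong to genes with a leading change in a comparison, and capitals mark the E2F letters. In Gins1 2 matches on opposite strands overlap, beginning 25 and 21 bases before the start. In Pole2 the match begins at base 10 of the transcribed side and lies on the opposite strand, in Cdca7 it begins 57 bases before the start on the opposite strand, and in Uhrf1, which has 3 windows, the matches of 1 window begin 193 and 99 bases before the start.
Gins1, chr3:160184670-160184969, plus strand: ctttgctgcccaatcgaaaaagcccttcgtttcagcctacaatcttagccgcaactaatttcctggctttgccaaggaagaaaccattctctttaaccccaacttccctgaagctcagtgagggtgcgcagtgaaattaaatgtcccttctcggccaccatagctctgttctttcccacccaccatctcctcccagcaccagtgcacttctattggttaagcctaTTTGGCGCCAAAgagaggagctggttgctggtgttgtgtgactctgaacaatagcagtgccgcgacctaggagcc
Pole2, chr6:93435312-93435611, minus strand: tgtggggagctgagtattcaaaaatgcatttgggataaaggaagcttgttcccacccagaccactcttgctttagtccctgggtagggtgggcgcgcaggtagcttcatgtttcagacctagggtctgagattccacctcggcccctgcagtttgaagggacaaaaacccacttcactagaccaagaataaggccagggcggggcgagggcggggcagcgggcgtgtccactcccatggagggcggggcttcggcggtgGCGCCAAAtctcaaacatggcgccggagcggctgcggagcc
Cdca7, chr3:77730065-77730364, plus strand: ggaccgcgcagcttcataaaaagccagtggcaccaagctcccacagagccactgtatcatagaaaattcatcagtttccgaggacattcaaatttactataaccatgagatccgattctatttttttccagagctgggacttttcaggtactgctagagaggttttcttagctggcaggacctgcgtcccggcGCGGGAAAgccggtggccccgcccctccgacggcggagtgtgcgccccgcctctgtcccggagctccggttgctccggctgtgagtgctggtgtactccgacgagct
Uhrf1, chr9:1222936-1223235, plus strand: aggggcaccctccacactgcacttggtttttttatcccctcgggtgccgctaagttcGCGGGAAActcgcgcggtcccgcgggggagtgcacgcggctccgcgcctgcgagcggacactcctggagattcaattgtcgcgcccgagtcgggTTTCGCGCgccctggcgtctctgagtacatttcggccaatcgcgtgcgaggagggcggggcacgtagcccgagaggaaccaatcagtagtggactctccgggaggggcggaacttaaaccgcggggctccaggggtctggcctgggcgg

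At 10 and 14 h the direction was the opposite one. Limma called 11 of the 33 genes higher and 0 lower, where 3.78% of all probes were called higher, and the median was 0.18. Gins1, a subunit of the GINS ring of the helicase, had the greatest increase. At 10 h its level was 10.11 and 9.65 in the gastrin samples of batches 2 and 3, against 9.27 and 9.25 in the controls. At 14 h it was 10.11, 9.88 and 10.34 in the gastrin samples of batches 1 to 3, against 9.75, 9.14 and 9.78 in the controls. The groups did not overlap at either time. At 4 h the same gene had been 8.79, 8.83, 10.20, 10.16 and 9.90 in the gastrin samples of batches 2 to 6, against 9.31, 9.25, 10.70, 10.89 and 10.54 in the controls, with each gastrin sample below its control. The late average for Gins1 was 0.58 ± 0.08 (SE, 5 pairs, limma adjusted p = 2.85e-05).

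**Figure D3:**
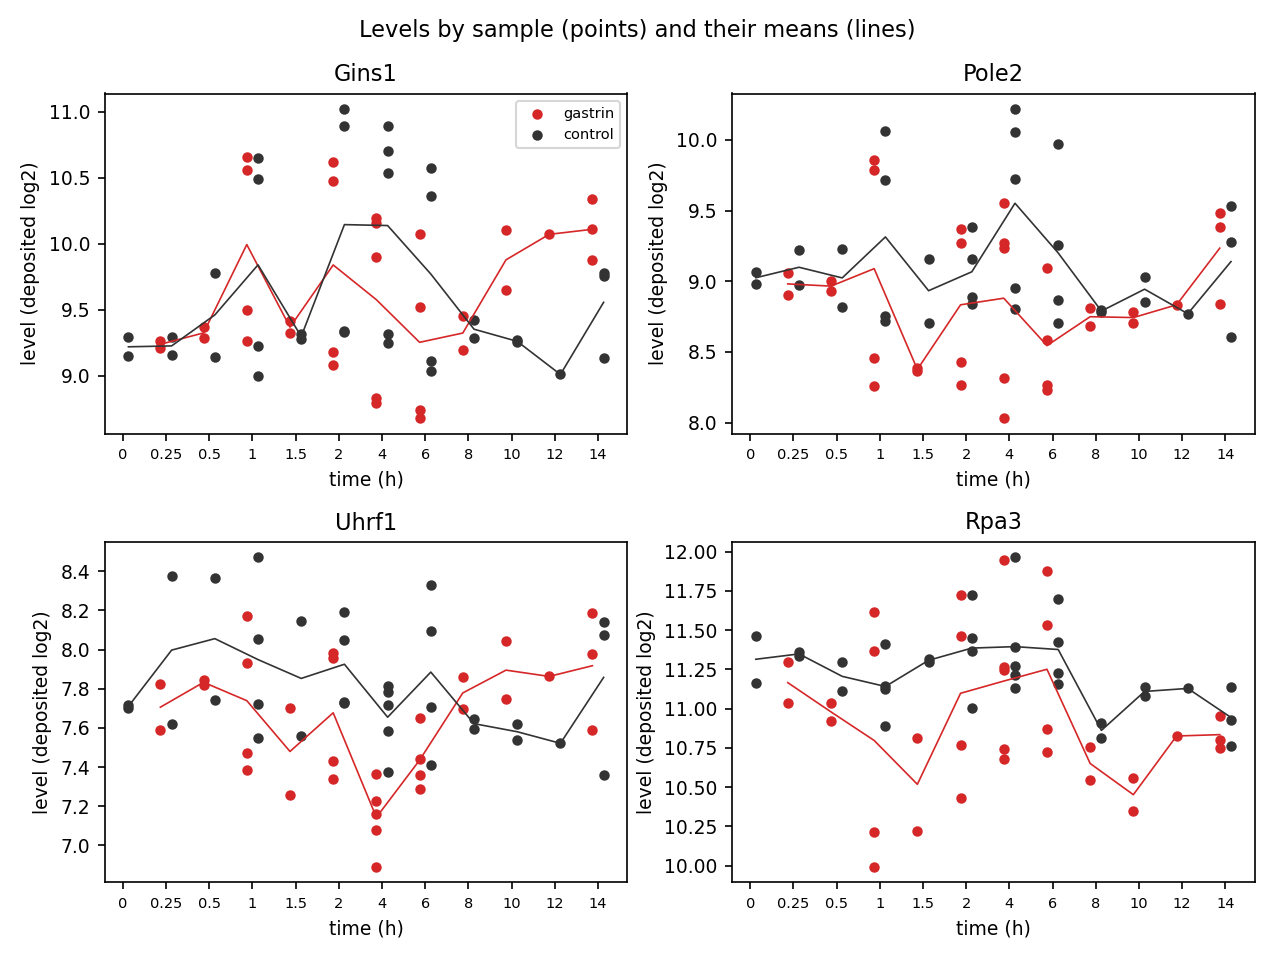
Level (deposited log2) of Gins1, Pole2, Uhrf1 and Rpa3 by time in hours, with gastrin samples in red left of control samples in black and lines through the means. The batches measured change between times, so a line mixes times and batches, and the gap between red and black at 1 time is the comparison. The gastrin mean of Gins1 lies under the control mean at 4 and 6 h and over it at 10 and 14 h.

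The other 10 genes called higher at 10 and 14 h came from 5 roles. Among the polymerases, 4 of 9 were called, Pola2 at 0.40 ± 0.08 (SE, 5 pairs, limma adjusted p = 0.00313), Pold1 at 0.38, Pola1 at 0.33 and Prim2 at 0.22. Pcna, the gene of the sliding clamp, was at 0.36 ± 0.06 (SE, 5 pairs, limma adjusted p = 1.27e-04) and was the 1 of 6 clamp and loader genes that was called. At 14 h its level was 13.34, 12.92 and 13.47 in the gastrin samples of batches 1 to 3, against 12.96, 12.29 and 13.17 in the controls. Each gastrin sample was above its own control, and the groups overlapped. Fen1, the flap nuclease, was at 0.37 ± 0.08 (SE, 5 pairs, limma adjusted p = 0.00443), Gins4 at 0.36, Gins2 at 0.27, Rpa2 at 0.23 and Chaf1b at 0.31. Of the 11 genes, 10 were higher in all 5 pairs, and Pold1 was higher in 4 of 5. None of the nucleotide supply or S phase entry genes was called at 10 and 14 h by limma, with Rrm2 at 0.04, Tyms at 0.17, E2f1 at 0.25, Ccne1 at 0.16 and Ccne2 at 0.22; an unadjusted p under 0.05 was found for Tyms, E2f1 and Ccne2.

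The change between the windows was tested itself, as the gastrin difference at 10 and 14 h minus that at 4 to 8 h. It was positive for 32 of the 33 genes, with a median of 0.41, and 18 were called, where 1.01% of all probes were called in that direction. The greatest was in Gins1, at 0.95 ± 0.10 (SE, limma adjusted p = 5.81e-06), then Pold1 at 0.73 ± 0.11 (SE, limma adjusted p = 4.76e-04) and E2f1 at 0.67 ± 0.11 (SE, limma adjusted p = 0.0011). Pola1, Pola2 and Chaf1b followed, at 0.63, 0.58 and 0.56. All 3 chromatin genes and 3 of 5 helicase assembly genes were among the 18, as were 2 of 6 clamp and loader genes. Rpa3 was the gene with a negative value, -0.20, and at 10 h it had -0.66 with gastrin minus control, which did not pass. In all, 9 genes were called lower at 4 to 8 h and higher at 10 and 14 h. Another 2, Pola2 and Fen1, were called higher late without a call in the average over 4 to 8 h. At single times, however, Pola2 was called lower at 4 and 6 h and Fen1 at 4 h.

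The late calls rest on few samples, 5 pairs from 3 batches. Without batch 2 limma called 0 genes at 10 and 14 h, with all 11 values still positive at 0.14 to 0.43, without batch 3 it called 3, and without arrays of high score 4, which were Pcna, Gins1, Gins2 and Gins4; with the score in the fit the count was 12. Of the 18 genes of the difference between windows, 1 (Gins1) was called without batch 2, 4 without batch 3 and 11 without arrays of high score.

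Of the 33 measured genes 7 passed in none of the 3 gastrin windows. These were Rfc1, Rfc2, Pold2, Pold3, Gins3, Mcm10 and Rpa1. Over 4 to 8 h they lay at -0.15, -0.13, -0.07, -0.04, -0.05, -0.09 and 0.03, in that order. In the tests of single times Rfc1 was called lower at 4 h, at -0.24, and Rfc2 at 4 and 6 h, at -0.30 and -0.30. In the fit of batches 4 to 6 at 4 and 6 h, Pold2 was called lower, at -0.32 ± 0.05 (SE, 5 pairs, limma adjusted p = 4.09e-04). Rfc2 was called lower there as well, at -0.41, and the rest of these genes were not called in it. The probes of Rpa1 and Gins3 were the dimmest of the group, with mean levels of 6.03 and 6.43, where the medians of the arrays were 6.403 to 6.406, and detection calls were not used here.

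Cycloheximide is commonly used to ask which changes need new protein. Without it, gastrin at 4 and 6 h in batches 4 to 6 (5 pairs) came with 20 of the 33 genes called lower, against 1.45% of all probes, with a median of -0.34. Beside cycloheximide, gastrin with cycloheximide minus cycloheximide alone gave 0 calls by limma at 4 to 6 h, with a median of -0.07 and 4 genes with an unadjusted p under 0.05, while 3.48% of all probes were called in either direction. The difference between these 2 gastrin effects was positive for 32 of the 33 genes, with a median of 0.26, and 2 genes passed the test of it, against 0.213% of all probes. These were Uhrf1, at 0.67 ± 0.10 (SE, 5 pairs, limma adjusted p = 0.00255), and Pold1, at 0.49 ± 0.10 (SE, 5 pairs, limma adjusted p = 0.0399), both positive in all 5 pairs. The other 31 genes did not pass that test, so for them a difference made by cycloheximide was not shown; 18 of the 33 had an unadjusted p under 0.05.

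The levels of Uhrf1 show this pattern. At 4 h they were 7.56, 7.09 and 6.89 with gastrin and cycloheximide in batches 4 to 6, against 7.24, 7.18 and 7.10 with cycloheximide, and 7.36, 7.16 and 6.89 with gastrin, against 7.82, 7.72 and 7.58 in the controls. At 6 h they were 7.97 and 7.95 with gastrin and cycloheximide in batches 4 and 5, against 7.97 and 7.92 with cycloheximide, and 7.29 and 7.65 with gastrin, against 8.09 and 8.33 in the controls. Gastrin samples lay below all controls of their time without the inhibitor, and the groups with it overlapped. For Pold1 the 4 h levels were 9.09, 9.17 and 8.74 with gastrin and cycloheximide, against 9.06, 9.14 and 8.81 with cycloheximide, and 8.64, 8.35 and 8.21 with gastrin, against 9.08, 8.74 and 8.71 in the controls. At 6 h they were 9.17 and 9.13 with gastrin and cycloheximide in batches 4 and 5, against 9.27 and 9.20 with cycloheximide, and 8.23 and 8.64 with gastrin, against 8.88 and 9.21 in the controls. Without cycloheximide the Pold1 levels of gastrin samples lay below all controls of their time. With it the groups overlapped at 4 h, and at 6 h the gastrin samples were lower in both pairs, by less than without it. Without batch 4 and without batch 5 limma called 0 genes for the difference, with Uhrf1 at 0.60 and 0.72; without batch 6 it called 1, Uhrf1 at 0.69; without arrays of high score it called 5.

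**Figure D4:**
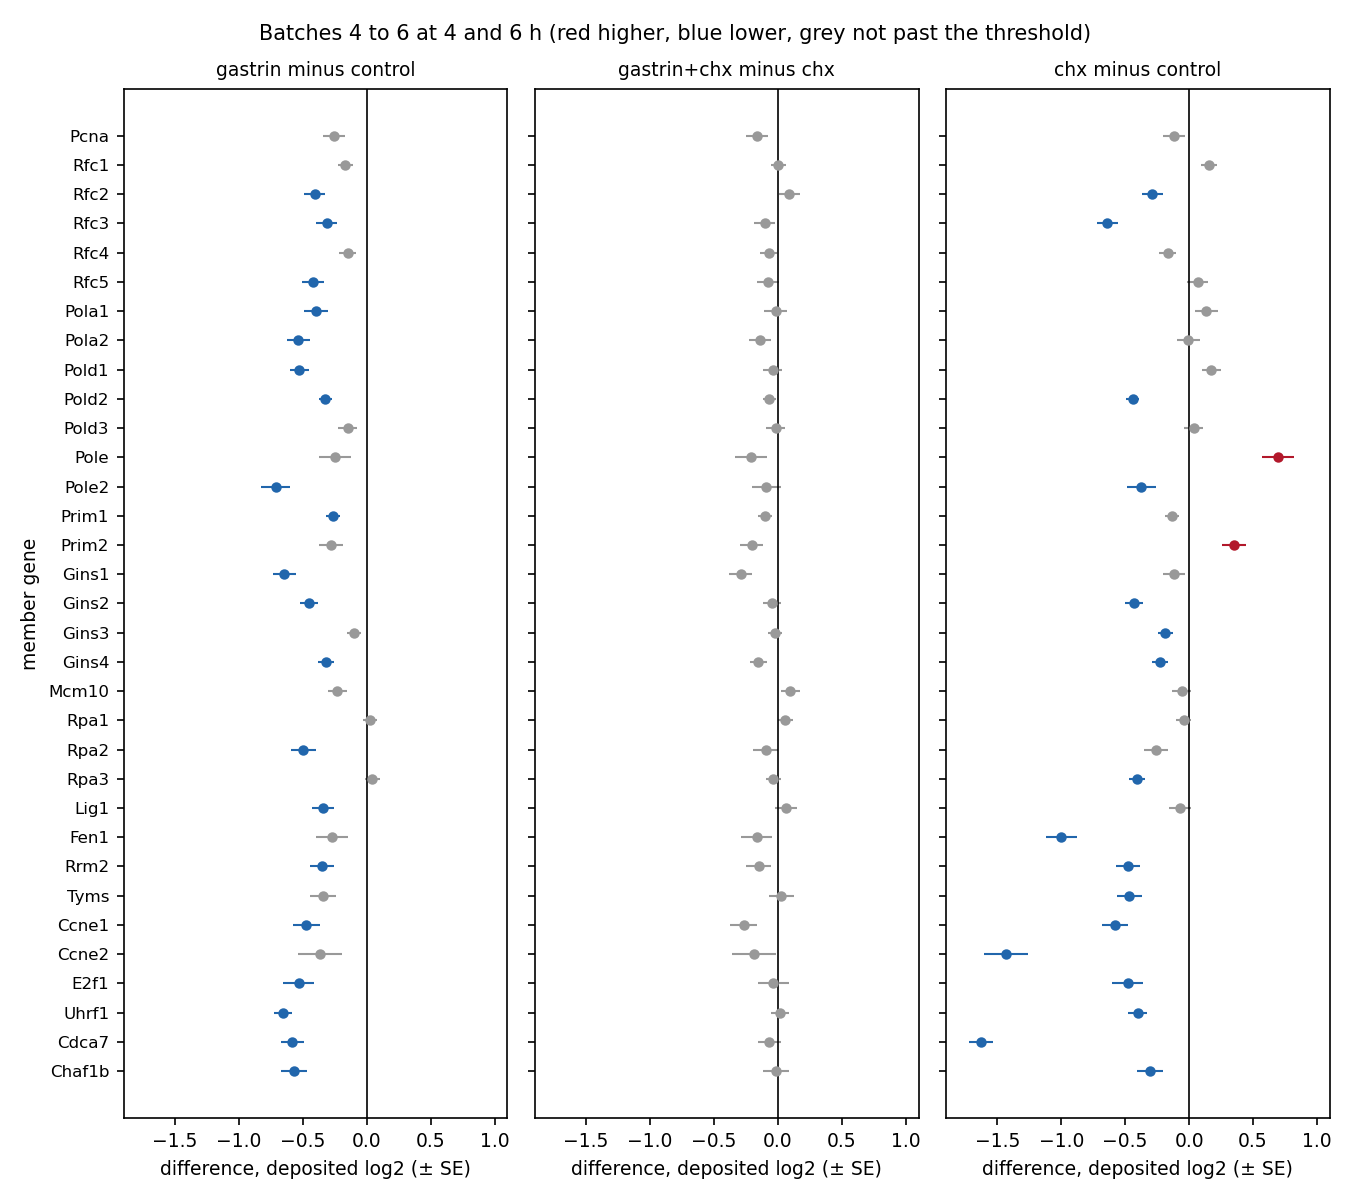
Fitted differences (deposited log2, with SE bars) of the 33 genes at 4 and 6 h in batches 4 to 6, for gastrin minus control, for gastrin with cycloheximide minus cycloheximide, and for cycloheximide minus control. Most points of the first panel lie left of 0 in blue, those of the second are grey, and the third spreads from Cdca7 at -1.63 to Pole at 0.69.

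Many of the genes were lower with cycloheximide alone, which is the starting level of that comparison. At 4 to 6 h 17 genes were called lower, against 13.3% of all probes, and 2 higher, against 12.3% of all probes, with a median of -0.23. Cdca7 had the greatest decrease. Its level at 4 h was 7.93, 8.21 and 8.32 with cycloheximide in batches 4 to 6, against 9.26, 9.85 and 9.79 in the controls, and at 6 h it was 7.64 and 8.10 with cycloheximide, against 9.34 and 9.95 in the controls. The groups were well apart at both times. The fitted difference was -1.63 ± 0.09 (SE, 5 pairs, limma adjusted p = 3.49e-11). Ccne2 followed at -1.43 ± 0.17 (SE, 5 pairs, limma adjusted p = 1.09e-06), then Fen1 at -0.9998 ± 0.12 (SE, 5 pairs, limma adjusted p = 1.32e-06), Rfc3 at -0.64 ± 0.08 (SE, 5 pairs, limma adjusted p = 3.58e-06) and Ccne1 at -0.58 ± 0.10 (SE, 5 pairs, limma adjusted p = 1.64e-04).

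The genes called higher with cycloheximide alone were Pole and Prim2. Pole had levels at 4 h of 10.16, 10.83 and 10.14 with cycloheximide, against 9.95, 9.65 and 9.88 in the controls, and at 6 h of 10.82 and 11.04 with cycloheximide, against 9.90 and 10.30 in the controls. The groups did not overlap at either time, and the difference was 0.69 ± 0.12 (SE, 5 pairs, limma adjusted p = 1.57e-04). Prim2 was at 0.35 ± 0.09 (SE, 5 pairs, limma adjusted p = 0.00563), higher in 4 of 5 pairs. So 2 subunits of polymerase epsilon differed in sign under cycloheximide, with Pole2 at -0.37. The 6 h cycloheximide array of batch 4 had an array score of 1.30; without arrays of high score 23 genes were called lower and 1 higher, and without batch 5 the total was 10.

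Set against gastrin alone, gastrin with cycloheximide at 4 to 6 h gave 10 genes called higher, against 11.7% of all probes, and 8 called lower, against 12.7% of all probes. Ccne2 was lowest. Its levels at 4 h were 7.16, 7.01 and 7.88 with gastrin and cycloheximide in batches 4 to 6, against 8.59, 8.77 and 8.95 with gastrin, and at 6 h 7.28 and 6.84 with gastrin and cycloheximide, against 7.63 and 8.63 with gastrin. The groups did not overlap, and the difference was -1.25 ± 0.17 (SE, 5 pairs, limma adjusted p = 6.53e-06). Cdca7 and Fen1 were also lower, at -1.11 and -0.89. Polymerase genes were among the higher ones, 5 of the 9, led by Pole at 0.73, Pold1 at 0.66 ± 0.07 (SE, 5 pairs, limma adjusted p = 4.28e-07) and Pola1 at 0.51. This comparison and the 2 before it share samples, so their values for a gene are not independent.

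**Figure D5:**
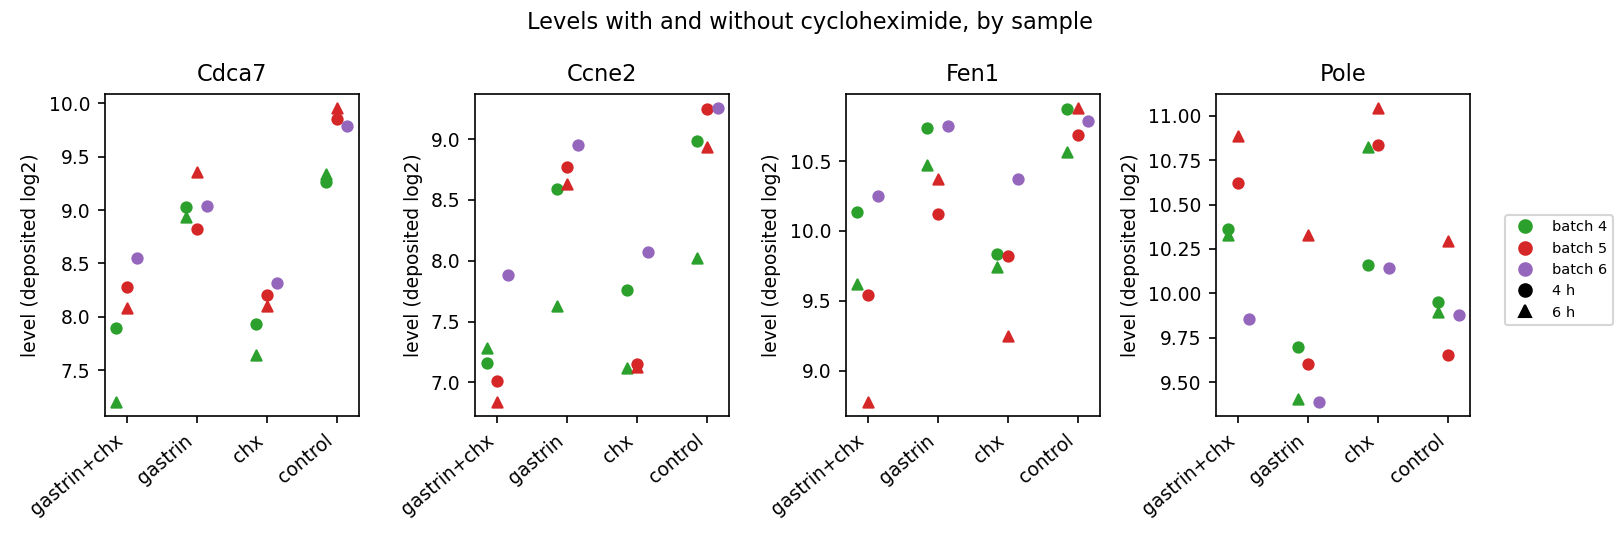
Level (deposited log2) of Cdca7, Ccne2, Fen1 and Pole in each sample at 4 h (circles) and 6 h (triangles), by treatment and coloured by batch. Cdca7 and Ccne2 are low in both arms with cycloheximide, whereas Pole is higher with cycloheximide alone than in the controls of the same time.

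At 1 to 2 h cycloheximide alone gave 5 genes called lower, against 6.85% of all probes, and 1 higher, against 6.55% of all probes. Those lower were E2f1 at -0.45 ± 0.13 (SE, 4 pairs, limma adjusted p = 0.0259), Cdca7 at -0.45 ± 0.10 (SE, 4 pairs, limma adjusted p = 0.00396), Pold2 at -0.34 ± 0.05 (SE, 4 pairs, limma adjusted p = 1.92e-04), Gins1 at -0.33 and Gins4 at -0.25, and Pold3 was higher, at 0.26. Without batch 4 the total was 2, as it was without batch 5. Without arrays of high score it was 3. Both 2 h controls have a high score, so that last total covers 1 h alone. Gastrin beside cycloheximide gave 0 calls at 1 to 2 h by limma, 2 genes with an unadjusted p under 0.05, and 0.0799% of all probes. Gastrin without cycloheximide in the same batches gave 1 call at these times, Rfc5 at -0.37, against 1.36% of all probes.

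In untreated cells the share of these genes that changed over the course was close to that of all probes. Controls of batches 2 and 3 at 8, 10 and 14 h, set against those at 0, 0.25 and 0.5 h, gave 3 genes called lower, against 6.64% of all probes, and 1 higher, against 5.78% of all probes, with a median of -0.05. Rrm2 was lower late, at -0.68 ± 0.13 (SE, limma adjusted p = 0.0015), with Prim1 at -0.29 and Rpa3 at -0.29, and Cdca7 was higher, at 0.34. In the same comparison 15 of 18 measured mitosis genes were called lower.

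Neighbouring pathways were read from 5 lists of 111 genes, 84 of them measured. Over 4 to 8 h 28 of the 84 were called lower with gastrin, against 5.33% of all probes, and 3 higher, against 4.98% of all probes. Of 16 origin licensing genes 7 were lower, led by Mcm3 at -0.44 ± 0.06, Mcm6 at -0.39 ± 0.08 and Cdc6 at -0.27 ± 0.08, the first pair being subunits of the MCM ring and the last its loading factor. Of 18 mitosis genes 9 were lower, led by Ccnb2 at -0.32 ± 0.06, Ttk at -0.25 ± 0.05 and Cdk1 at -0.23 ± 0.06. Of 14 fork protection and checkpoint genes 5 were lower, led by Asf1b at -0.34 ± 0.06, Dnmt1 at -0.34 ± 0.07 and Timeless at -0.22 ± 0.06. Nucleotide synthesis was mixed, with 3 of 18 lower and 2 higher, among them Dctd at -0.43 ± 0.04 and the folate enzyme gene Shmt2 at 0.49 ± 0.08. Of 18 other G1/S control genes 4 were lower and 1 higher.

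At 10 and 14 h 8 of the 16 licensing genes were called higher, against 3.78% of all probes, and 0 lower, led by Orc1 at 0.53 ± 0.09, Mcm2 at 0.40 ± 0.09 and Cdc6 at 0.38 ± 0.11. In the test of the difference between the windows, 8 of 16 licensing genes were called higher, beside 18 of the 33 replication genes, against 1.01% of all probes. Of 18 mitosis genes 0 were called by limma, with 6 of these at an unadjusted p under 0.05. The median of that difference was 0.38 over the licensing genes and 0.06 over the mitosis genes, and whether the lists differ was not tested. With cycloheximide alone at 4 to 6 h 13 of 18 mitosis genes were lower, against 13.3% of all probes, led by Cdk1 at -1.24 ± 0.11. Of 16 licensing genes 8 were lower, led by Orc1 at -0.93 ± 0.09, and 2 were higher, a share close to the 12.3% of all probes called higher. In the G1/S control list Myc was higher with cycloheximide alone, at 1.31 ± 0.13, and Skp2 lower, at -0.88 ± 0.11. The difference that cycloheximide made to the gastrin effect was called higher for 4 of the 84 genes, against 0.213% of all probes. These were Mcm6 at 0.81 ± 0.14, Clspn at 0.73 ± 0.15, Dctd at 0.50 ± 0.10 and Mcm7 at 0.38 ± 0.08.

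Batches differed in the gastrin effect on some of these genes. Averaged over 1, 2, 4 and 6 h, the effect in batches 4 and 5 minus that in batches 2 and 3 was called for 14 of the 33 genes, 6 with a positive difference, against 8.38% of all probes, and 8 with a negative one, against 7.71% of all probes. The greatest were Rpa3 at 0.72 ± 0.06 (SE, limma adjusted p = 2.58e-09) and Rrm2 at 0.50 ± 0.07 (SE, limma adjusted p = 5.65e-06), and Pola2 at -0.37 ± 0.06 (SE, limma adjusted p = 9.04e-05). At 2 h Rrm2 with gastrin minus control was -0.97 and -0.82 in batches 2 and 3, and -0.04 and -0.10 in batches 4 and 5. At 4 h Pola2 was -0.14 and -0.16 in batches 2 and 3, and -0.26 and -0.64 in batches 4 and 5. At 4 h alone limma called 0 of the 33, with 9 at an unadjusted p under 0.05, against 1.56% of all probes, and at 2 h alone it called 11, against 17.1% of all probes. Without batch 2 the count over all 4 times was 5, without batch 3 it was 6, and with the score as a covariate it was 0. The parts of array score and batch in this difference cannot be told apart here.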

How the data were processed

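Per the submitters' processing notes the authors used lumi 2.4.0, and the values they deposited are on a log2 scale. The notes leave unsaid whether a variance-stabilised form was used, so a log2 difference is on the deposited scale and may understate changes of dim probes. The 90 arrays held 22523 probes with no missing value. Array medians were 6.403 to 6.406. Array number limits the precision, and no array was left out for its quality.

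Differences were fitted with limma 3.58.1 in R 4.3.3 on all probes, with batch and time as a block, so each treated sample is set against the sample of its own batch and time. Same-batch pairs deviated together from their group means, with correlations of 0.199 to 0.923 in 30 of 30 pairs. These are not 30 separate results, since the 2 pairs of a time with 2 batches share 1 value, from 0.199 to 0.346. At 1, 2, 4 and 6 h the group means span both sets of batches, so an offset between the sets enters the correlation. Technical replicate arrays, and the arrays of 1 stimulus at 1 h in batches 4 and 5, were averaged for the gastrin fits. The fit was tested on simulated data. The 2 arrays at 12 h whose title and treatment label conflict entered no comparison.

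The genes and lists were chosen with earlier results of these data known. Named are up to 6 called genes of greatest change per comparison and 1 leading gene given by sample (Rpa3, Pole2, Gins1, Cdca7, Uhrf1 and Ccne2), all genes called in no gastrin window, and up to 3 called genes of each other list. Other genes given by sample or by value (among them E2f1, Pcna, Pole, Pold1 and those that complete a role) were chosen after their values were seen. The alternatives tried are given in the closing section.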

Additional observations from a re-analysis of the deposited data

Results flagged for a closer look

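The gastrin effect at 10 and 14 h was higher than that at 4 to 8 h for 18 of the 33 genes, by a test of the difference between the windows. With cycloheximide, the gastrin effect at 4 to 6 h differed from the effect without it for Uhrf1, by 0.67 on the log2 scale, and for Pold1, by 0.49. The gastrin effect differed between batches 4 and 5 and batches 2 and 3 for 14 genes. Each of these is a tested difference between effects of the same kind, and the part of the array score and of batch in them was not tested beyond the counts given here. For the first, 2 of 5 gastrin arrays at 10 and 14 h had a score above 0.5, against 0 of 5 controls, the count was 11 without arrays of high score, and the windows come from batches 1 to 3 and 2 to 6. For the last, the count was 0 with the score as a covariate. The gastrin minus control differences of single pairs were also checked at 1, 2, 4 and 6 h, for the median of the 33 genes and for the 6 leading genes, in 28 sets of 4 or 5 pairs. In 0 of these did a pair stand far from the others, where chance marks about 1 set in 20.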

How the results depend on the processing

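With no replicate block, so without pairing by batch and time, limma called 0 genes in each gastrin window, in the difference between windows, at 2, 4, 6 and 10 h and in the difference made by cycloheximide, and 1 for cycloheximide alone at 1 to 2 h. This setting leaves the spread between batches in the error. With batch as an additive term the counts were 2 at 0.5 to 2 h, 9 at 4 to 8 h, 3 at 10 and 14 h, 2 between windows, and 1, 12, 4 and 0 at 2, 4, 6 and 10 h. Leaving out 1 batch gave 0 genes at the fewest and 11 at the most at 0.5 to 2 h, 9 to 21 at 4 to 8 h, 0 to 14 at 10 and 14 h, 1 to 20 between windows, 10 to 21 for cycloheximide alone at 4 to 6 h and 2 in either case at 1 to 2 h. It gave 0 to 1 for the difference made by cycloheximide, 5 to 13 for the batch difference, 1 to 7 at 2 h, 11 to 13 at 6 h and 0 to 7 at 10 h. A threshold of 0.01 gave 11 between windows, 2 for cycloheximide alone at 1 to 2 h, 1 for the difference it made, and 3, 12 and 1 at 2, 6 and 10 h. Batches 2 and 3 alone gave 22 at 10 and 14 h, 10 at 6 h and 14 at 10 h. Batches 4 to 6 alone gave 5 at 2 h and 3 for the 0.5 to 2 h window, of which they hold 1 and 2 h alone. With the array score as a covariate the counts were 2 at 0.5 to 2 h, 3 for cycloheximide alone at 1 to 2 h and 0 for the batch difference. Without arrays of high score they were 0 at 0.5 to 2 h, from pairs at 0.5 and 1 h alone, 4 at 10 and 14 h and 11 between windows. For cycloheximide alone at 1 to 2 h the count was then 3, from pairs at 1 h only, and for the difference cycloheximide made it was 5. Technical replicates left out gave 1 for that difference, as did array weights and the trend and robust option, which gave 5 each at 2 h, and the last gave 3 at 10 h. Batch as a random block gave 4 at 10 h.

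Directions turned for few genes, and the cause was not tested. In the 0.5 to 2 h window, which batches 4 to 6 cover at 1 and 2 h alone, Rfc4 was 0.12, Prim1 0.041 and Rpa3 0.18 in those batches. Without arrays of high score Rfc4 was 0.0026 and Rpa3 0.059, from pairs at 0.5 and 1 h alone. Times as well as arrays therefore differ from the main fit in these values. In the batch difference, with the array score as a covariate, Rrm2 was -0.034, Tyms -0.24 and Gins1 0.20. Quantile normalization and centring on the array median changed the call of 0 of 181 single values each (an adjusted p by limma crossing 0.05 or a turned sign). The deposited medians were already 6.403 to 6.406, so centring could hardly change a call and is no check of the results. Fewer samples are used wherever a batch or an array is left out, so fewer calls follow in part from that construction. Dim probes such as those of Rpa1 and Gins3 limit what can be seen.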

Other observations

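The pair of 12 h arrays in batch 3 has titles and treatment labels that conflict, so neither was placed in a group. In the array titled gastrin and labelled as untreated, Gins1 was 9.55, Pcna 12.88 and E2f1 8.81. In the array titled untreated and labelled gastrin, Gins1 was 8.78, Pcna 12.35 and E2f1 7.94. Of the 33 genes 29 were higher in the array titled gastrin, with a median difference of 0.33 and a median over all probes of 0. The array titled gastrin had a high array score, 1.19, and the array titled untreated had 0.15.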
